A study of Mus musculus with 24 samples.

Results

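HBC-3 mouse hepatoblasts were compared after 1 day on Matrigel and at day 0, on the 3 arrays titled time 1 and the 3 titled time 0, which were chosen by title alone and make up 6 of the 24 arrays of the series. HBC-3 is a line of embryonic liver cells with the capacity to become hepatocyte-like or duct-like, and Matrigel is a gel of basement membrane proteins rich in laminin and collagen IV. Day 0 cells are labelled as the control, and day 1 cells had spent 1 day on the gel. All cells of the series, those of the reference included, had been taken off a STON+ feeder layer with trypsin and replated on plastic, and undifferentiated cells were collected on the following morning. Every array set a Cy5 target of its own sample against a Cy3 target of undifferentiated HBC-3 cells, so on the day 0 arrays both colours held undifferentiated cells. Both groups come from a single cell line, and the labels do not say if arrays A, B and C of a day were separate cultures. The p-values therefore measure no more than the spread between arrays, and that spread may be technical.

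Epithelial cells moved from plastic to a basement membrane gel exchange a stiff, flat support for a soft one full of integrin ligands. On stiff plastic, cells build actin stress fibres that end in focal adhesions, and the transcriptional coactivator YAP, acting through TEAD proteins and held back by the Hippo kinases, is known to respond to that tension. Lysosomes and autophagy, which recycle proteins and organelles, sterol synthesis and ribosome production are further programmes that commonly shift when growth conditions change.

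Values are taken as log2 ratios of sample over reference, so 0 is the level of the reference channel and a difference of 1 is a 2-fold difference. Which base and which numerator the deposited ratios have is not given in the sources used here. Array values are listed in the order A, B, C, each after centring the array on its median, and differences carry the standard error (SE) of the fit with n = 3 arrays per day unless a missing value is named. "Past the threshold" means an adjusted p below 0.05 from limma over 10639 units. Of these, 5660 were genes with 1 symbol and 4979 were unnamed features. The spread in that fit was estimated over all arrays of the series, those of later days included. Missing the threshold can therefore reflect spread on later days and does not show that a gene or list was unchanged.

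The day 0 arrays stood apart from one another, and this bears on every value below. Across features, day 0 array A correlated with B at 0.755 but with C at -0.343, B with C at 0.084, while the day 1 arrays correlated at 0.750 to 0.889. Arrays A and C have the same dye orientation, and the cause of the correlation of -0.343 between them was not tested. Results are also given with the values of all day 0 arrays multiplied by -1, called here the turned sign. Turning all of them leaves the correlations between the day 0 arrays unchanged, so it cannot address the disagreement of A and C. The turned sign shows only how far a result rests on the day 0 values. A further check set day 1 directly against the zero of the reference channel. That contrast holds no day 0 array, though the day 0 arrays still take part in estimating its spread, and it does not remove a dye bias. It shares the day 1 arrays and the estimate of spread with the comparison against day 0. Passing in both, for single genes and for the lists below, is therefore not independent evidence.

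Of the 5660 genes, 531 differed between the days, or 9.38% of those tested. Of these, 310 were higher (5.48%) and 221 lower (3.90%) at day 1. Against the reference zero 871 genes passed (15.4%), 486 higher (8.59%) and 385 lower (6.80%). Both contrasts called 248 of the 310 genes that rose and 195 of the 221 that fell, and no called gene passed in the opposite direction against the reference. The other 62 and 26 genes passed against day 0 only. Because the contrasts share the day 1 arrays and the estimate of spread, this agreement in direction is partly built in. Over the genes that rose, the median ratio was 0.89 at day 1 and -0.48, -0.46 and -0.02 on the day 0 arrays. Over those that fell it was -0.96 at day 1 and 0.25, 0.33 and 0 on the day 0 arrays. Day 0 arrays A and B therefore lay on the far side of zero in the typical called gene, while array C lay at or near it. The median difference over all genes was 0.074. Over all 10639 units, unnamed features included, 1161 passed against day 0 (10.9%), 531 of them higher (4.99%) and 630 lower (5.92%), and 1720 against the reference (16.2%). At day 0 itself 1 gene passed against the reference (0.0177% of genes and 0.00940% of units), Trp53inp1. Day 1 and day 0 values did not overlap in 25.7% of genes with day 1 higher and in 16.1% with day 1 lower, among those with a value on all 6 arrays.

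**Figure D1:**
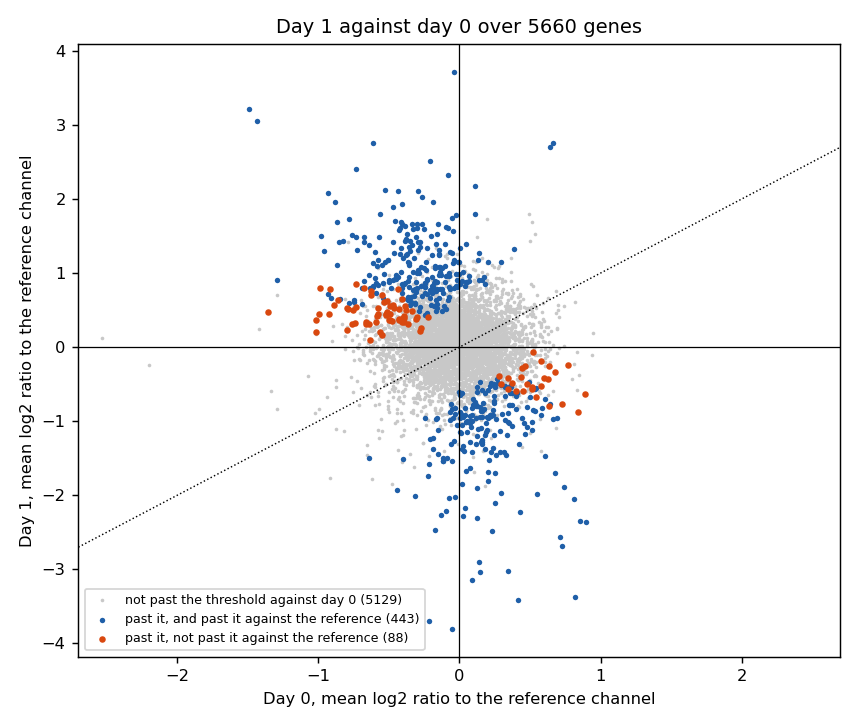
Mean log2 ratio to the reference channel at day 0 (x axis) and day 1 (y axis) for 5660 genes, each point 1 gene; the dotted line marks equal values. Genes in blue passed the threshold against day 0 and against the reference zero (443), and genes in orange passed against day 0 only (88); the orange points sit nearer to 0 at day 1 than the blue ones and away from 0 at day 0.

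The named-gene rule gave 200 genes, 191 of them past the threshold against day 0, of which 110 were higher and 81 lower. Of the 191, 170 also passed against the reference zero. The call was kept by 65 with the day 0 sign turned on all arrays, and by 174 with that of day 0 array C alone turned. It was kept by 98, 87 and 178 when day 0 array A, B or C was left out. When day 1 array A, B or C was left out, 123, 122 and 109 kept it. Bag3, Ctnnb1, Eef1e1, Fgfr1, Htra2, Irs1, Nip7, Sdc3 and Tipin lost the call without any 1 of the 6 arrays. Altogether 78 genes kept the call whichever of the 6 arrays was left out, and 47 also kept it with the day 0 sign turned and against the reference. Below, "kept the call throughout" refers to those 47. Over all units the 1161 calls became 405, 330 and 1565 without day 0 array A, B or C. They became 541, 623 and 459 without day 1 array A, B or C, and 515 with the day 0 sign turned. The list counts given below for these settings are to be read beside this general change. Likewise, the count of a list higher or lower is to be read beside 5.48% and 3.90% of all genes.

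Among transcripts of actin stress fibres and focal adhesions every call was a fall. Of 38 measured members 13 were lower and 0 higher, 34.2% lower against 3.90% of all genes, and the median difference was -0.64 against 0.074 over all genes. All 13 were also lower than the reference, as were 6 further members. Zyx, of the LIM protein zyxin at focal adhesions, stood at 0.79, 1.14 and 0.26 on day 0 and -2.33, -3.11 and -2.60 on day 1 and fell by 3.41 ± 0.70 (adjusted p = 0.00461). Its day 1 values lay far below every day 0 value. Fhl1, of another LIM domain protein, stood at 1.66, 1.14 and -0.36 on day 0 and -1.90, -2.58 and -1.66 on day 1 (-2.86 ± 0.71, adjusted p = 0.0135), with day 0 array C already below zero. The actin crosslinker gene Actn1 stood at 1.30, 0.98 and -0.25 on day 0 and -1.34, -2.15 and -1.61 on day 1 (-2.38 ± 0.73, adjusted p = 0.0402), with the same low day 0 array C. The groups did not overlap in either gene, a property that the rule for ranked genes required. With day 1 lower it was also seen in 16.1% of genes with values on all 6 arrays.

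Further genes of the contractile system also fell. The tropomyosin gene Tpm2 stood at 0.08, 0.54 and 0.37 on day 0 and -1.39, -1.39 and -1.59 on day 1 and fell by 1.79 ± 0.42 (adjusted p = 0.0103). Bcar1, of the adhesion scaffold p130Cas, stood at 0.42, 0.98 and 0.32 on day 0 and -0.94, -0.94 and -0.86 on day 1, with day 1 arrays close together (-1.49 ± 0.26, adjusted p = 0.00132). Lpp, a zyxin relative, fell by 1.47 ± 0.38, and Myl12b, a myosin regulatory light chain, by 1.44 ± 0.38. Aif1l, an actin-bundling protein gene, went from 0.80, 0.99 and 0.36 to -2.31, -2.79 and -2.59 and kept the call throughout. Actb, of beta-actin itself, stood at 1.40, 0.999 and -0.67 on day 0 and -0.78, -2.004 and -1.42 on day 1, a difference of -1.98 ± 0.84 that did not pass (adjusted p = 0.148). Its day 0 values alone spanned from -0.67 to 1.40. The smooth muscle marker Smtn, of the stress fibre protein smoothelin, fell by 1.03 ± 0.25 and lost the call without day 0 array A, and the other tested marker of that list, Mylk, stood at -0.08.

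The count of fallen stress fibre genes depended on single arrays, as did the count of falls over all units. The list count was 3 without day 0 array B, 4 without day 0 array A and 4 with the day 0 sign turned, where the median was -0.56. Falls over all units went from 630 to 154, 215 and 300 in the same settings. Among the named members of the list Aif1l, Zyx and Bcar1 kept the call whichever array was left out. With the day 0 sign turned Zyx (-1.95) and Bcar1 (-0.34) no longer passed. Genes of actin turnover and the cell edge did not follow the same course: of 33 measured, 1 rose and 1 fell. Arpc1b, a subunit of the branching complex Arp2/3, rose by 1.25 ± 0.37, and Capza1, a capping protein subunit, fell by 1.21 ± 0.23. Arpc1b kept the call when day 0 array C was left out and lost it without any 1 of the other 5 arrays.

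Caveola and adhesion receptor genes moved in both directions. Of 26 integrins and other matrix receptors 7 were higher and 2 lower (26.9% and 7.69%), and all 9 passed against the reference. Without day 0 array B, day 1 array A or day 1 array C 4 were higher, without day 0 array C 4 were lower, and with the day 0 sign turned 4 were higher and 2 lower. Itga3, the laminin-binding integrin alpha 3 subunit, stood at 0.96, 1.26 and 0.46 on day 0 and -2.19, -2.59 and -2.30 on day 1. Itgb3, the beta 3 subunit of the vitronectin receptor, stood at -0.70 and 0.62 on day 0 and 3.45, 4.02 and 3.68 on day 1, with day 0 array B missing, and rose by 3.75 ± 0.49 (adjusted p = 0.000197). Day 1 Itgb3 values lay higher than those of any other gene in the plot of adhesion genes, and the call was kept throughout. Itgb5, of the beta 5 subunit, went from -1.62, -1.59 and 0.35 to 1.42, 1.19 and 1.30, with day 0 array C above zero and arrays A and B far below it (2.26 ± 0.42, adjusted p = 0.00221). With the day 0 sign turned its difference was 0.34 and did not pass.

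The matrix receptors that rose included genes of heparan sulphate proteoglycans. Gpc1, of glypican 1, stood at 0.33, -0.13 and -0.44 on day 0 and 2.23, 2.27 and 2.49 on day 1 (2.41 ± 0.50, adjusted p = 0.005). Sdc1, of syndecan 1, stood at -0.43, -0.48 and 0.36 on day 0 and 1.83, 1.99 and 2.04 on day 1 (2.14 ± 0.29, adjusted p = 0.000181). Gpc1 and Sdc1 kept the call throughout, and Sdc3, of syndecan 3, rose by 1.36 ± 0.41 but lost the call when any 1 of the 6 arrays was left out. The tetraspanin gene Cd9 went from -1.76, -0.96 and 0.55 to 1.25, 1.35 and 1.35; its day 1 arrays agreed closely while its day 0 arrays spread widely. Cav1, which encodes the caveola coat protein caveolin 1, stood at -0.06, -0.11 and -0.06 on day 0 and -2.24, -1.97 and -1.91 on day 1 and fell by 1.97 ± 0.36, a call kept throughout. Cavin2, of a partner protein of the same coat, stood at 1.19, 1.47 and -0.10 on day 0 and -2.15, -2.61 and -2.30 on day 1 and fell by 3.20 ± 0.42, likewise kept throughout. The integrin beta 1 gene Itgb1, whose product pairs with most laminin-binding alpha subunits, did not pass (0.21 ± 0.49, adjusted p = 0.857), and Itga6, an alpha subunit for laminin, rose by 0.86 ± 0.22 (adjusted p = 0.0176).

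**Figure D2:**
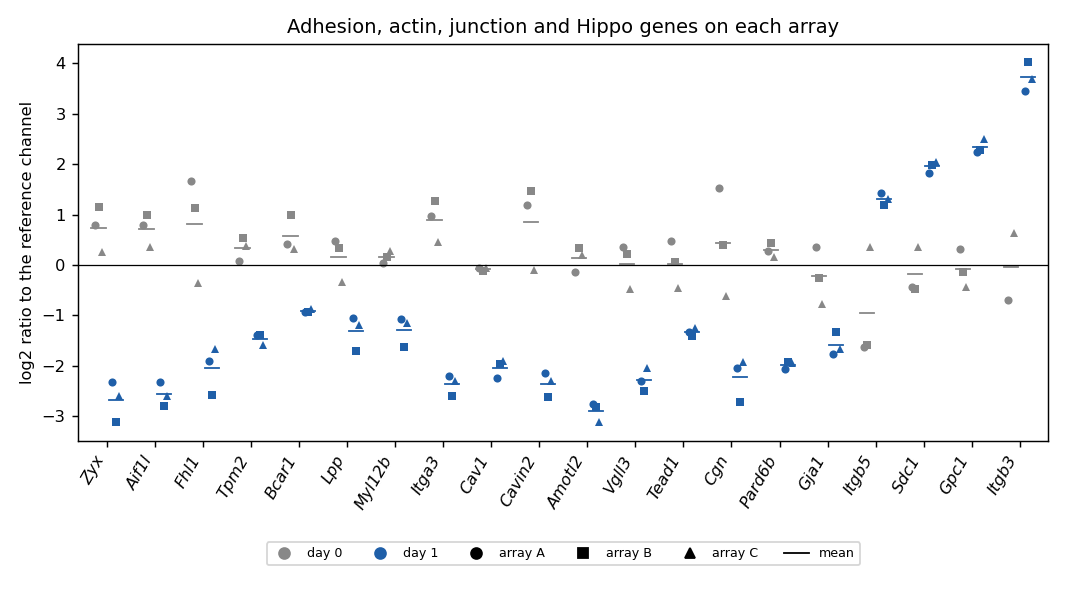
Log2 ratio to the reference channel (y axis) of 20 genes of adhesion, actin, junctions and Hippo signalling on each day 0 array (grey) and day 1 array (blue), with arrays A, B and C as circle, square and triangle and the day mean as a bar. Stress fibre, caveola, Hippo and junction genes lie below the reference at day 1, while Itgb5, Sdc1, Gpc1 and Itgb3 lie above it.

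Genes linked to YAP and TEAD fell where they changed. Of 21 measured members 5 were lower (23.8%) and 0 higher, with a median of -0.30, and the 5 were also lower than the reference. Amotl2, of an angiomotin that binds YAP at junctions, stood at -0.13, 0.35 and 0.21 on day 0 and -2.75, -2.81 and -3.12 on day 1 and fell by 3.04 ± 0.35 (adjusted p = 2.73e-05). Vgll3, of a TEAD cofactor, stood at 0.35, 0.21 and -0.48 on day 0 and -2.29, -2.499 and -2.04 on day 1 (-2.31 ± 0.42, adjusted p = 0.00211). From the lowest day 0 value to the highest day 1 value the gap was -2.62 in Amotl2 and -1.56 in Vgll3, and the call of both was kept throughout. Tead1 itself stood at 0.48, 0.06 and -0.46 on day 0 and -1.33, -1.42 and -1.26 on day 1 (-1.36 ± 0.31, adjusted p = 0.00874). The Hippo kinase gene Lats2 fell by 1.56 ± 0.41 and the upstream scaffold gene Wwc1 by 2.08 ± 0.63. The count was 2 without day 0 array A and 4 with the day 0 sign turned. The common YAP targets Ccn1, Ccn2 and Ankrd1 had no feature under their symbols and were not analysed here.

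The promoters of the YAP-linked genes were searched for GGAATG, the core of the TEAD site, on both strands of the 250 bases before the RefSeq start (assembly GRCm38.p6). It occurred in 12.6% of 32851 such windows, in 7 of the 19 members matched and in 2 of the 4 matched members that fell. The windows of those 2 genes, Amotl2 (chr9:102717554-102717803, plus strand) and Vgll3 (chr16:65814939-65815188, plus strand), are shown 5′ to 3′ with the match in capitals, which on this strand reads CATTCC. A match describes the letters only. Here and in the searches below, a member counted if any of its windows held the letters. Shares of windows and of members are therefore unlike measures.
Amotl2: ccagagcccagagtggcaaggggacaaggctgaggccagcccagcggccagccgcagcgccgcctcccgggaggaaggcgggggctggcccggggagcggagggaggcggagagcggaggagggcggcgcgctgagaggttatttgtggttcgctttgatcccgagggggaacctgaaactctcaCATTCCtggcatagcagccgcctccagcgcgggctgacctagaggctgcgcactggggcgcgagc
Vgll3: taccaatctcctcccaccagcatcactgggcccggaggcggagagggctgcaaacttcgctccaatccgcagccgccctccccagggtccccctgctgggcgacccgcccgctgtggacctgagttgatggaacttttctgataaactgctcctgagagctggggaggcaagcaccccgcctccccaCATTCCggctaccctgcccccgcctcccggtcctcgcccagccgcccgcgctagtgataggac

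Junction and polarity genes fell beside them. Of 22 measured, 5 were lower (22.7%) and 1 higher (4.55%), with a median of -0.58, and the 5 that fell were also lower than the reference. Cgn, of the tight junction protein cingulin, stood at 1.52, 0.39 and -0.62 on day 0 and -2.04, -2.71 and -1.91 on day 1. Its day 0 arrays spread over more than 2 units. The groups did not overlap, as the rule for ranked genes required. Pard6b, of a polarity complex with atypical protein kinase C, stood at 0.28, 0.44 and 0.15 on day 0 and -2.05, -1.92 and -1.95 on day 1 and fell by 2.27 ± 0.38 with little spread on either day (adjusted p = 0.00132). Gja1, of the gap junction protein connexin 43, stood at 0.36, -0.25 and -0.76 on day 0 and -1.77, -1.32 and -1.66 on day 1. Afdn, of the adherens junction protein afadin, fell by 1.25 ± 0.33, and the kinase gene Prkci by 1.07 ± 0.34. The member that rose was Ctnnb1, of beta-catenin, at -0.33, -0.47 and -0.58 on day 0 and 0.60, 0.36 and 0.64 on day 1 (0.99 ± 0.32, adjusted p = 0.0487). It did not pass against the reference (adjusted p = 0.115) and lost the call when any 1 of the 6 arrays was left out. Leaving out day 0 array A, day 0 array B or day 1 array C left 2 junction genes lower, and with the day 0 sign turned 3 were. Cdh1, Krt8 and Krt19 had too few values to test.

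Matrix genes moved in both directions. Of 18 genes of basement membrane and interstitial matrix 4 were higher (22.2%) and 1 lower (5.56%), with a median of 0.61. The turned sign gave the opposite balance, 2 higher and 3 lower, with a median of 0.27. Vcan, of the proteoglycan versican, stood at -1.20, -0.41 and 0.19 on day 0 and 1.19, 2.78 and 1.70 on day 1, with array B highest (2.36 ± 0.51, adjusted p = 0.00744). Mgp, of matrix Gla protein, stood at -0.15, -0.28 and -0.36 on day 0 and 1.86, 1.47 and 1.66 on day 1, a rise of 1.93 ± 0.45. Of 14 collagens and collagen folding genes 3 rose (21.4%) and 0 fell. Col6a1 stood at -0.40, -0.26 and 0.59 on day 0 and 1.79, 1.59 and 1.99 on day 1, Col27a1 at -0.69, -0.10 and 0.31 on day 0 and 1.70, 0.92 and 1.56 on day 1, and Col5a1 at -0.88, -0.55 and 0.19 on day 0 and 1.14, 0.71 and 1.22 on day 1. The rises were 1.81 ± 0.44, 1.56 ± 0.34 and 1.43 ± 0.29. In each of these collagens day 0 array A was the lowest and array C the highest, and day 1 array B was the lowest of its day. The count of collagens was 1 without day 0 array A, 5 without day 0 array C and 2 with the day 0 sign turned. Lamc1, the laminin gamma 1 chain found in Matrigel's own laminin, stood at -0.18, -0.14 and -0.39 on day 0 and 0.34, -0.28 and 0.26 on day 1 and did not pass (adjusted p = 0.47). Smoc1, of a calcium-binding basement membrane protein, and Chst11, of a chondroitin sulphotransferase, rose by 2.28 ± 0.51 and 2.11 ± 0.49.

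Genes that cut or protect matrix also split. In a list of 15 matrix proteases and their inhibitors, 4 rose (26.7%) and 2 fell (13.3%), and all 6 passed against the reference. Adam12, of a membrane metalloprotease, stood at -0.96, -0.74 and 0.01 on day 0 and 1.69, 2.04 and 1.67 on day 1. Adamts4, an aggrecan- and versican-cleaving enzyme gene, stood at -0.03 and -0.17 on day 0 and 1.90, 0.66 and 1.60 on day 1, with day 0 array C missing, and Adam19 rose by 1.07 ± 0.29. Plat, of tissue plasminogen activator, stood at -0.61, -1.19 and -0.23 on day 0 and 1.57, 1.10 and 1.80 on day 1. In the other direction, Pcsk6, of a proprotein convertase, stood at -0.12, 0.25 and 0.25 on day 0 and -2.09, -1.80 and -1.83 on day 1 and fell by 2.03 ± 0.28 (adjusted p = 0.000259), a call kept throughout. When day 0 array B was left out 1 of these genes was still higher, and with the day 0 sign turned 1 was higher and 3 lower.

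Fibroblast markers, the cell type of the feeder layer, rose where they changed, and Col6a1 and Col5a1 were already counted among the collagens above. Of 12 measured, 3 rose (Pdgfrb, Col6a1 and Col5a1) and 0 fell, with a median difference of 0.87 and a range from 0.11 to 2.29. The median ratio of the 12 was -0.68, -0.55 and 0.09 on the day 0 arrays and 0.53, 0.16 and 0.56 on the day 1 arrays, so day 0 arrays A and B were low. Pdgfrb, of a receptor for platelet-derived growth factor, stood at -0.88, -0.32 and 0.40 on day 0 and 2.51, 1.11 and 2.45 on day 1 and kept the call throughout. The mesenchymal marker Vim stood at -0.70, -0.58 and 0.19 on day 0 and -0.16, -0.14 and -0.05 on day 1 and did not pass (adjusted p = 0.786). The count was 2 without day 0 array A, day 0 array B or day 1 array C and 5 without day 0 array C. With the day 0 sign turned 2 were higher and 1 lower, the median of the list was 0.02, and its part in the matrix result was not tested. In bulk RNA more cells of a type and more RNA per cell cannot be told apart. Of 3 blood cell markers 1 rose, the globin gene Hba-a1, at 0.02, -0.10 and 0.09 on day 0 and 2.10, 0.02 and 1.89 on day 1, where array B overlapped day 0 and 1 of 7 features ran the opposite way. Of 2 endothelial and 1 adipocyte markers 0 passed (limma), 0 of them also at an unadjusted p under 0.05.

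Ligand and receptor pathways showed a few changed members each. Of 27 genes of the TGF-beta, activin and BMP pathway 6 rose (22.2%) and 1 fell (3.70%). The receptor gene Acvr1b stood at -0.51, -0.04 and 0.07 on day 0 and 0.79, 0.82 and 0.73 on day 1, and Acvr1 rose by 0.82 ± 0.24. Smad3, which carries TGF-beta and activin signals, stood at 0.09, 0.01 and -0.17 on day 0 and 0.58, 1.19 and 0.73 on day 1, and Smad5, which carries BMP signals, at -0.55, -0.68 and 0.01 on day 0 and 0.79, 0.48 and 0.68 on day 1. The ligand gene Bmp4 stood at -0.23, -0.17 and 0.01 on day 0 and -2.47, -2.04 and -2.27 on day 1, with day 0 near the reference on all arrays. Nrep stood at -2.23, -1.73 and -0.34 on day 0 and 2.87 and 3.25 on day 1, with day 1 array A missing, and rose by 4.49 ± 0.77, with day 0 arrays A and B far below the reference. With the day 0 sign turned it was 1.63 and did not pass. The count of pathway genes higher was 2 without day 0 array B. The turned sign gave 1 higher and 1 lower, and the median of the list went from 0.41 to -0.03.

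Among growth factors, receptor tyrosine kinases and their feedback genes, 4 of 31 rose (12.9%) and 3 fell (9.68%). Spred1, an inhibitor of Ras signalling, stood at -0.13, -0.59 and -0.42 on day 0 and 1.40, 1.48 and 1.498 on day 1, a rise of 1.84 ± 0.23 (adjusted p = 5.9e-05) that kept the call throughout. Fgfr1 rose by 1.39 ± 0.42 with day 1 array B highest, at 1.01, 1.72 and 0.99. The ephrin receptor gene Epha2 stood at 0.25, 0.33 and 0.14 on day 0 and -1.25, -1.54 and -1.29 on day 1, and Igf1 and Irs1, of the insulin-like growth factor axis, fell by 1.16 ± 0.28 and 0.71 ± 0.22. Fgfr1 and Irs1 lost the call when any 1 of the 6 arrays was left out. Met, of the receptor for hepatocyte growth factor, stood at 0.13, -0.27 and -0.51 on day 0 and -1.83, -1.11 and -1.49 on day 1. It did not pass against day 0 (-1.26 ± 0.56, adjusted p = 0.168) but was lower than the reference (adjusted p = 0.0149). Egfr stood at -0.44, -0.45 and -0.50 on day 0 and 0.34, 0.58 and 0.47 on day 1, evenly on either side of zero. Its difference of 0.925 ± 0.509 did not pass (adjusted p = 0.278). The SD of Egfr was 0.035 on day 0 and 0.121 on day 1, while the SE rests on all arrays of the series. Missing the threshold therefore does not show that Egfr was unchanged between these days. Its difference with the turned sign was -0.002. The counts were 2 higher and 0 lower without day 0 array B. The turned sign gave the opposite balance, 2 higher and 4 lower, with a median of -0.01.

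In the Wnt pathway 3 of 19 genes rose (15.8% against 5.48% of all genes) and 1 fell (5.26% against 3.90%). Fzd1, of a Wnt receptor, stood at -1.19, -0.92 and -0.10 on day 0 and 2.44, 2.57 and 2.23 on day 1, the corepressor gene Tle4 fell by 1.05 ± 0.28, and Csnk1a1, of casein kinase 1 alpha, rose by 0.74 ± 0.21 against day 0 but did not pass against the reference (adjusted p = 0.142). Without any single array other than day 0 array C, Fzd1 was the 1 Wnt gene still higher, and with the day 0 sign turned 1 was higher and 0 lower. Of 12 Notch pathway genes 0 passed (limma), with a median of 0.25 and 4 higher and 0 lower at an unadjusted p under 0.05. The Notch target Hes1 had no feature under its symbol.

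Genes of the interleukin 6 family signal and of the acute phase, the secreted response that hepatocytes mount through JAK kinases and STAT3, rose in 7 of 14 cases. That share is 50.0%, against 5.48% of all genes, 0 were lower, the median was 0.94, and all 7 passed against the reference. Osmr, of the oncostatin M receptor, stood at -0.39, -0.32 and 0.26 on day 0 and 1.27, 2.37 and 1.35 on day 1. Jak2 stood at -0.44, -0.31 and -0.14 on day 0 and 1.43, 2.05 and 1.33 on day 1, a rise of 1.90 ± 0.34 (adjusted p = 0.00152) that kept the call throughout, and Jak1 rose by 0.95 ± 0.24. Stat3 stood at -0.60, -0.38 and 0.55 on day 0 and 0.59, 1.25 and 1.07 on day 1, where day 0 array C nearly met the lowest day 1 array. The feedback inhibitor gene Socs3 stood at -0.82, -0.64 and 0.17 on day 0 and 1.27, 2.41 and 1.07 on day 1. In Osmr, Jak2, Stat3 and Socs3 array B gave the highest day 1 value. Lbp, of the lipopolysaccharide-binding protein of plasma, stood at -1.33, -0.88 and 0.00 on day 0 and 1.25, 1.90 and 1.30 on day 1. The count was 2 without day 0 array A or B and 1, Jak2, with the day 0 sign turned.

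The alarmin gene Il33 stood at -1.95, -1.97 and -0.56 on day 0 and 3.19 and 3.24 on day 1, with day 1 array B missing, and its rise of 4.70 ± 0.89 was the largest of the named genes (adjusted p = 0.00285). It kept the call whichever array was left out, but with the day 0 sign turned it was 1.72 and did not pass. The chemokine gene Cx3cl1 stood at -0.13, 0.32 and 0.21 on day 0 and 1.29, 1.20 and 1.05 on day 1 and kept the call throughout.

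Interferon response genes that changed over the same day fell. Of 20 measured, 5 were lower (25.0%) and 0 higher, with a median of -0.47, and the 5 were also lower than the reference. Rsad2, of the antiviral enzyme viperin, stood at -0.46, 0.02 and 0.16 on day 0 and -2.32, -2.11 and -2.19 on day 1 and fell by 2.11 ± 0.38 (adjusted p = 0.00192). Usp18, which removes the ubiquitin-like ISG15, stood at -0.15, 0.38 and 0.38 on day 0 and -1.42, -2.18 and -1.45 on day 1. The guanylate-binding protein gene Gbp2 stood at -0.16, 0.18 and 0.19 on day 0 and -1.30, -2.34 and -1.24 on day 1, with day 1 array B lowest as in Usp18. Samhd1, of a nucleotide-cleaving restriction factor, stood at 0.10, 0.27 and 0.12 on day 0 and -1.41, -1.12 and -1.24 on day 1, and Xaf1 fell by 1.19 ± 0.33, although its day 0 array A was already at -0.93. Day 0 lay on or near the reference in Rsad2, Usp18, Gbp2 and Samhd1. With the day 0 sign turned 6 members were lower, these 5 included, and without day 0 array B or day 1 array B 3 were.

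The interferon-stimulated response element was searched as GAAA, any 2 bases and GAAA on both strands of the same promoter windows. It occurred in 2.98% of all windows, in 6 of 14 members matched and in 2 of the 4 matched members that fell, Gbp2 (chr3:142620413-142620662, plus strand) and Rsad2 (chr12:26456453-26456702, minus strand). Their windows are shown 5′ to 3′ in the direction of the gene because the list moved one way, with the match in capitals; on these strands it is the reverse complement.
Gbp2: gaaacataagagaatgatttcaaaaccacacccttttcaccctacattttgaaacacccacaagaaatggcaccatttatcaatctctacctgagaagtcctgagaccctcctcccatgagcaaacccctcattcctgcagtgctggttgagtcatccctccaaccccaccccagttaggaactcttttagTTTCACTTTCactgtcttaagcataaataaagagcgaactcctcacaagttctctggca
Rsad2: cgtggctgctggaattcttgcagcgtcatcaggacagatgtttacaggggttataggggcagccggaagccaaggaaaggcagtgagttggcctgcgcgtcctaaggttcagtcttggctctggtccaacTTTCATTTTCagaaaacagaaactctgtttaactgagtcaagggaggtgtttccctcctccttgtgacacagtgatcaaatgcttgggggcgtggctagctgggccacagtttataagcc

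Lysosomal genes that changed all rose. Of 38 lysosomal enzymes and membrane proteins 14 were higher (36.8% against 5.48% of all genes) and 0 lower, with a median of 0.81, and 12 of the 14 passed against the reference, where 18 members in all were higher. Ctsb, of the protease cathepsin B, stood at -0.24, -0.59 and -0.04 on day 0 and 1.32, 1.57 and 1.38 on day 1, a rise of 1.71 ± 0.27 (adjusted p = 0.000612) that kept the call throughout. Lamp2, of a membrane protein of the lysosome, stood at -0.57, -0.63 and -0.26 on day 0 and 0.78, 0.65 and 0.96 on day 1, and Hexa, of a hexosaminidase subunit, at -0.68, -0.38 and 0.06 on day 0 and 0.91, 1.12 and 0.99 on day 1. Ctsa, of the protective protein cathepsin A, stood at -1.09, -0.80 and 0.06 on day 0 and 0.78, 0.78 and 0.88 on day 1, and the serine carboxypeptidase gene Scpep1 at -0.94, -0.78 and -0.07 on day 0 and 0.82, 0.54 and 0.82 on day 1. The day 1 values of these genes lay close together. Lgmn, Manba and Cln3 rose by 1.29 ± 0.39, 1.39 ± 0.44 and 1.40 ± 0.36, and Manba did not pass against the reference (adjusted p = 0.101). Day 0 array C was missing for Cln3.

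Per array, the median of the lysosomal list was -0.26, -0.31 and -0.03 on day 0 and 0.58, 0.56 and 0.56 on day 1. The day 1 arrays thus gave nearly the same level for the list, and 2 of the day 0 arrays lay below the reference. The count was 6 without day 0 array A, day 0 array B, day 1 array A or day 1 array C, and 2 with the day 0 sign turned, where the median was 0.31. Fibroblast markers were higher on the same arrays, as given above, and their part in the result was not tested. Of 12 vacuolar ATPase genes, the proton pump that acidifies the lysosome, 2 rose (16.7%), Atp6ap1 by 0.998 ± 0.28 and Atp6ap2 by 1.34 ± 0.35, and 0 fell. Atp6ap2 did not pass against the reference (adjusted p = 0.0553). The count was 4 without day 0 array C, and 0 members passed (limma) without day 0 array A, day 0 array B, day 1 array A or day 1 array C, or with the day 0 sign turned.

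TCACGTGA, the E-box at the core of the element through which TFEB drives lysosomal genes, was searched in the same windows. It occurred in 0.785% of all windows, in 5 of 31 lysosomal genes matched and in 3 of the 11 matched members that rose. The 3 were Ctsa (chr2:164833523-164833772, plus strand), Cln3 (chr7:126583237-126583486, minus strand) and Dpp7, which lies outside the rule for named genes and was noticed after its values were seen. The other 2 genes with the letters, Ctsd and Gla, did not pass against day 0. The windows of the named pair are shown 5′ to 3′ with the match in capitals.
Ctsa: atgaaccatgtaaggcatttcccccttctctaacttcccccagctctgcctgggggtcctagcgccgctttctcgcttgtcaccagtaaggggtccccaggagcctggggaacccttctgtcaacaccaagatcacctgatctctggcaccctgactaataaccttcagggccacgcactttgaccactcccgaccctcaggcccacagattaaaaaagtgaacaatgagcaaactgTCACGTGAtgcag
Cln3: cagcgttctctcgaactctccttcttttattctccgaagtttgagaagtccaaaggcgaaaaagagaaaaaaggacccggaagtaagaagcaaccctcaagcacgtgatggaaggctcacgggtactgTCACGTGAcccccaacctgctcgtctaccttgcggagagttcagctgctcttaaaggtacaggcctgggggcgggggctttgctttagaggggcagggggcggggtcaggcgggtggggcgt

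Autophagy and mitophagy genes also changed in 1 direction. Of 27 measured, 7 were higher (25.9%) and 0 lower, with a median of 0.43, and 6 of the 7 passed against the reference. Map1lc3b, of the autophagosome membrane protein LC3B, stood at -1.20, -1.06 and 0.19 on day 0 and 0.81, 0.80 and 0.80 on day 1; day 1 arrays were nearly equal, and the difference of 1.49 ± 0.31 was 0.11 with the day 0 sign turned. The cargo receptor gene Nbr1 stood at -0.36, -0.58 and -0.13 on day 0 and 0.94, 1.36 and 1.02 on day 1. Bnip3l, of a receptor for the removal of mitochondria, stood at -0.87, -0.73 and -0.13 on day 0 and 1.16, 1.32 and 1.04 on day 1 (1.75 ± 0.26, adjusted p = 0.000398), and Pink1, of the kinase that marks damaged mitochondria, at -0.22, 0.07 and -0.26 on day 0 and 1.07, 1.37 and 0.60 on day 1. The initiating kinase gene Ulk1 rose by 0.73 ± 0.20. Fundc1, of a further mitophagy receptor, rose by 0.79 ± 0.25 against day 0 only. Without day 1 array B 3 members were still higher, and 0 were (limma) with the day 0 sign turned.

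The proteasome is the other main route of protein breakdown, and of 34 proteasome genes 0 passed (limma; 1 higher and 1 lower at an unadjusted p under 0.05), with a median of 0.06, and of 54 ubiquitin enzymes and deubiquitinases 1 fell. That was Skp2, of the F-box protein that targets the cell cycle inhibitor p27, at -0.09, 0.05 and -0.14 on day 0 and -0.76, -0.61 and -0.92 on day 1, and the call was lost without day 0 array A, day 0 array B, day 1 array A or day 1 array C. Of 86 genes of traffic between the endoplasmic reticulum and the Golgi 6 rose (6.98%, near the 5.48% of all genes) and 1 fell (1.16% against 3.90%). The count of those higher ran from 1 without day 0 array A, day 0 array B or day 1 array A to 14 without day 0 array C, and with the day 0 sign turned 1 was higher and 1 lower. The small GTPase gene Rab31 stood at -0.13, -0.28 and 0.11 on day 0 and 1.73, 1.48 and 1.65 on day 1, a rise of 1.72 ± 0.26 (adjusted p = 0.000511) that kept the call throughout.

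In several genes of traffic and folding, day 0 arrays A and B lay further from the reference than the day 1 arrays did. Copz1, of a coat protein of Golgi vesicles, stood at -1.12, -1.15 and 0.09 on day 0 and 0.43, 0.73 and 0.48 on day 1. Spcs2, of signal peptidase, stood at -1.23, -1.29 and 0.13 on day 0 and 0.49, 0.44 and 0.64 on day 1, and the syntaxin gene Stx7 at -0.80, -0.70 and -0.07 on day 0 and 0.56, 0.16 and 0.58 on day 1. None of these 3 passed against the reference (adjusted p = 0.222, 0.137 and 0.131), and the sign turned with that of day 0. Golga7 rose by 1.59 ± 0.47 and likewise did not pass against the reference (adjusted p = 0.0811). Of 50 genes of folding in the endoplasmic reticulum 1 rose, Spcs2. The count was 7 without day 0 array C, and 0 passed (limma) without day 0 array A, day 0 array B or day 1 array C.

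**Figure D3:**
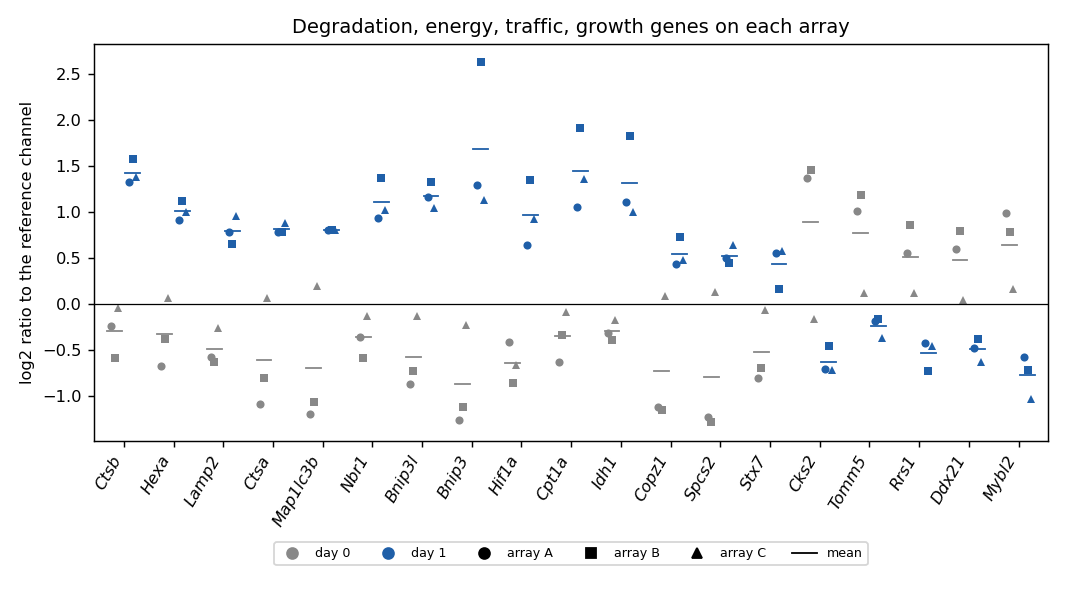
Log2 ratio to the reference channel (y axis) of 19 genes of lysosome, autophagy, energy metabolism, vesicle traffic, ribosome assembly and the cell cycle on each day 0 array (grey) and day 1 array (blue), with arrays A, B and C as circle, square and triangle and the day mean as a bar. Day 0 array C (grey triangle) lies nearer to zero than arrays A and B in most genes, and Copz1, Spcs2, Stx7, Cks2 and Tomm5 show larger deviations on day 0 arrays A and B than on day 1.

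In energy metabolism a few genes of fat oxidation, of the tricarboxylic acid cycle and of the hypoxia response rose, and a single gene of the respiratory chain changed. Of 24 genes of mitochondrial and peroxisomal fatty acid oxidation 3 rose (12.5%) and 0 fell, with a median of 0.70, and 7 were higher than the reference. Cpt1a, of the enzyme that commits fatty acids to mitochondria, stood at -0.63, -0.34 and -0.09 on day 0 and 1.05, 1.91 and 1.35 on day 1, with array B highest. Acaa2 and Hadh, of later steps of the same path, rose by 1.19 ± 0.34 and 1.05 ± 0.30. Without day 0 array B, day 1 array B or day 1 array C 0 members passed (limma), nor did any with the day 0 sign turned. Of 17 genes of the tricarboxylic acid cycle and pyruvate 2 rose (11.8%), both also against the reference, and 0 fell. Idh1, of cytosolic isocitrate dehydrogenase, stood at -0.31, -0.39 and -0.18 on day 0 and 1.10, 1.82 and 1.001 on day 1, and Mdh2, of mitochondrial malate dehydrogenase, rose by 1.19 ± 0.31. Without day 0 array A, day 0 array B, day 1 array A or day 1 array C 1 of this pair passed, and with the day 0 sign turned 0 did (limma). Of 48 subunits of oxidative phosphorylation 0 rose and 1 fell, Cycs, of cytochrome c, by 0.90 ± 0.21, with a list median of -0.05. Cycs lost the call without day 0 array A or B, and with the day 0 sign turned 1 subunit was higher and 0 were lower. Of 11 glycolytic genes 0 passed (limma; 2 higher and 0 lower at an unadjusted p under 0.05) with a median of 0.42, and the median ratio on the day 1 arrays was 0.01, 0.78 and -0.05, high on array B only.

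Hypoxia-linked genes rose in 4 of 13 cases (30.8%), all 4 also against the reference. Bnip3 and Bnip3l, among these, were also counted in the autophagy and mitophagy list. Hif1a, of the oxygen-regulated transcription factor subunit, stood at -0.41, -0.86 and -0.66 on day 0 and 0.64, 1.34 and 0.92 on day 1, a rise of 1.61 ± 0.32 (adjusted p = 0.00342). Vhl, whose protein targets that factor for degradation, stood at -0.45, -0.39 and 0.10 on day 0 and 1.02, 0.85 and 0.74 on day 1. Bnip3 stood at -1.26, -1.11 and -0.23 on day 0 and 1.30, 2.63 and 1.13 on day 1, with array B far above the others. When day 0 array A or B was left out 2 of the 4 passed, and with the day 0 sign turned 0 did (limma). Slc2a1 and Vegfa had no feature under their symbols.

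Sterol synthesis genes past the threshold all fell. Of 12 genes of cholesterol synthesis and uptake 3 fell (25.0%) and 0 rose, while the list median was -0.04. Idi1, of isopentenyl diphosphate isomerase, stood at -0.01, 0.09 and -0.17 on day 0 and -2.30, -1.64 and -2.12 on day 1. Msmo1, of a sterol C4 demethylating oxidase, stood at 0.30, -0.13 and -0.52 on day 0 and -1.69, -1.28 and -1.66 on day 1 (-1.43 ± 0.21, adjusted p = 0.000404). Sqle, of squalene epoxidase, stood at 0.03, 0.18 and -0.15 on day 0 and -1.55, -1.03 and -1.57 on day 1. All 3 kept the call throughout, and the count of 3 was unchanged without each of the 6 arrays and with the day 0 sign turned. At an unadjusted p under 0.05 (limma) 1 member of the list was higher and 4 were lower. Other enzymes of the path did not fall, Fdft1 at a difference of 0.01 and Cyp51 at 0.34, named here after their values were seen. The promoter windows of 9 matched members, 2 of the 3 that fell among them, held the sterol element TCACNCCAC in 0 cases, against 1.05% of all windows. With so low a share, 0 of 9 members is uninformative. Of 15 genes of fatty acid synthesis and storage 2 rose and 1 fell, and 0 passed (limma) without day 0 array A or with the day 0 sign turned. Acacb, of the mitochondrial acetyl-CoA carboxylase, fell by 0.94 ± 0.21. Lpin1, of a phosphatidate phosphatase, stood at -1.47 and -1.11 on day 0 and 0.93, 0.87 and 0.90 on day 1, with day 0 array C missing. Plin2, of a lipid droplet coat protein, stood at -1.08, -0.94 and 0.11 on day 0 and 0.18, 0.25 and 0.51 on day 1 and did not pass against the reference (adjusted p = 0.367).

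Genes of detoxification and retinoids rose in 5 of 23 cases (21.7%) and fell in 2 (8.70%), all 7 also against the reference. The count of those higher was 3 without day 0 array A, and with the day 0 sign turned 2 were higher and 4 lower. Metallothioneins bind zinc and copper. Mt1 stood at 0.74, 1.18 and 0.07 on day 0 and 2.597, 2.88 and 2.79 on day 1, a rise of 2.09 ± 0.44, and Mt2 at 1.38, 0.98 and -0.44 on day 0 and 2.74, 2.43 and 2.96 on day 1, a rise of 2.07 ± 0.46. Here day 0 arrays A and B were themselves above the reference, and with the day 0 sign turned the differences grew to 3.42 and 3.35. Mgst1, of a microsomal glutathione transferase, stood at -0.59, -0.64 and -0.02 on day 0 and 1.55, 1.62 and 1.66 on day 1. Rdh10, of a retinol dehydrogenase, rose by 1.69 ± 0.43 with day 0 array B missing, and Ephx2, of an epoxide hydrolase, by 1.43 ± 0.41. Aldh1a1, of the retinaldehyde dehydrogenase that acts after Rdh10, stood at 0.25, 0.51 and 0.27 on day 0 and -2.85, -3.21 and -3.03 on day 1 and kept the call throughout. Abcc3, of an exporter of bile salts and other organic anions in the basolateral membrane, stood at 0.48, 0.48 and -0.10 on day 0 and -1.10, -0.93 and -1.37 on day 1 and fell by 1.42 ± 0.23, kept throughout. Of 44 solute carriers and ion pumps 4 rose (9.09% against 5.48% of all genes) and 1 fell (2.27% against 3.90%). The count of those higher was 0 (limma) without day 0 array A, day 0 array B or day 1 array B, 6 without day 0 array C and 2 with the day 0 sign turned. Slc39a10 and Slc39a14, of zinc importers, rose by 1.43 ± 0.38 and 0.77 ± 0.23. Slc30a1, of a zinc exporter, rose by 1.14 ± 0.35, with day 0 array C missing. Slc7a1, of a cationic amino acid transporter, fell by 1.34 ± 0.27.

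Amino acid and polyamine metabolism gave 2 higher (6.67%) and 3 lower (10.0%) of 30 genes, against 5.48% and 3.90% of all genes. The count of those higher was 0 (limma) without day 0 array B, day 1 array A or day 1 array C, and the count of those lower was 2 without day 0 array B and 5 without day 0 array C. Odc1, of ornithine decarboxylase, the entry to polyamines, stood at 0.47, 0.41 and 0.07 on day 0 and -1.46, -1.25 and -1.52 on day 1 and fell by 1.73 ± 0.32 (adjusted p = 0.00198), a call kept throughout. The folate enzyme gene Mthfd1 fell by 1.63 ± 0.38, and Ddah1, whose product breaks down methylated arginine, went from 0.63, 0.34 and -0.21 to -1.73, -2.26 and -2.34. Glul, of glutamine synthetase, stood at -0.06, -0.43 and -0.22 on day 0 and 1.22, 0.87 and 1.03 on day 1, and Bckdha, of branched-chain ketoacid dehydrogenase, at -0.89, -0.58 and 0.10 on day 0 and 1.85, 1.75 and 1.49 on day 1. Selenop and Glrx, of the selenium carrier of plasma and of glutaredoxin, were the 2 of 22 redox genes that rose (9.09% against 5.48% of all genes). Their rises were 2.25 ± 0.47 and 1.98 ± 0.41, with 1 call left without day 0 array A and 0 (limma) with the day 0 sign turned. Day 0 array B was missing for Glrx. Rpia, of the pentose phosphate isomerase, stood at 0.08, 0.26 and 0.35 on day 0 and -2.46, -2.52 and -2.48 on day 1; its day 1 arrays lay close together.

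**Figure D4:**
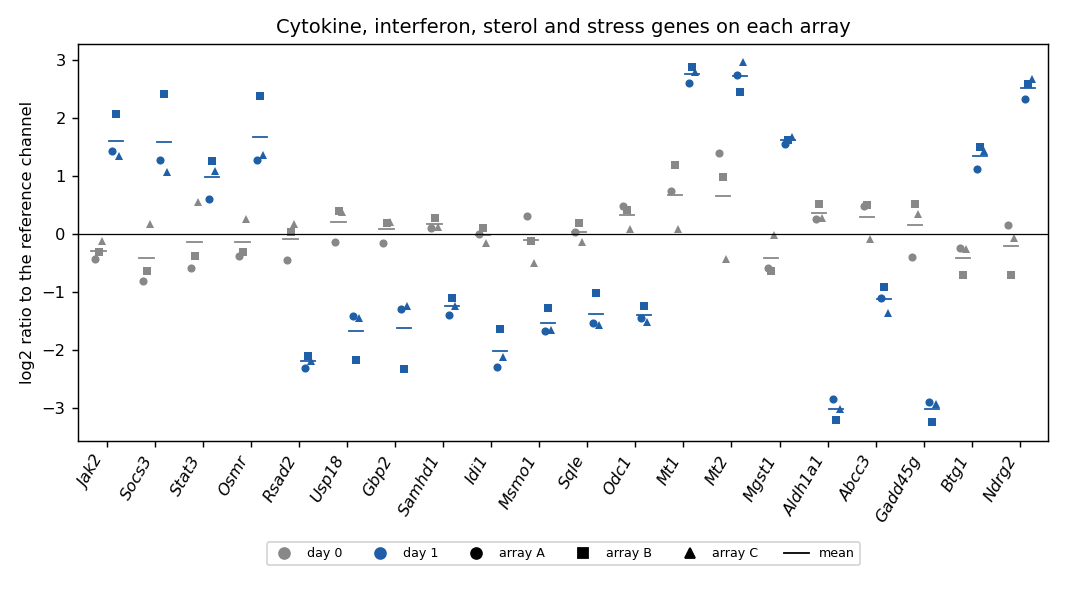
Log2 ratio to the reference channel (y axis) of 20 genes of cytokine signalling, the interferon response, sterol and polyamine synthesis, detoxification and growth arrest on each day 0 array (grey) and day 1 array (blue), with arrays A, B and C as circle, square and triangle and the day mean as a bar. Array B is the highest day 1 array for Jak2, Socs3, Stat3 and Osmr, and the 3 sterol genes lie near zero at day 0 and below -1 at day 1.

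Genes of ribosome assembly that changed all fell. Of 46 genes of ribosome assembly and the nucleolus 6 fell (13% against 3.90% of all genes) and 0 rose, with a median of -0.40. Ddx21, of a nucleolar helicase, stood at 0.60, 0.80 and 0.04 on day 0 and -0.47, -0.38 and -0.62 on day 1, and Rrs1, of an assembly factor of the large subunit, at 0.56, 0.86 and 0.12 on day 0 and -0.42, -0.73 and -0.46 on day 1. Exosc8, of the RNA exosome, stood at 0.44, 0.41 and 0.12 on day 0 and -0.76, -0.50 and -0.73 on day 1 (-0.99 ± 0.19, adjusted p = 0.00358). Exosc2, Noc2l and Nip7 fell by 1.10 ± 0.26, 0.99 ± 0.29 and 0.76 ± 0.23. Only 3 of the 6 passed against the reference, Exosc2, Exosc8 and Nip7. Without day 0 array B or day 1 array C 1 member was lower, and with the day 0 sign turned 2 members were lower and 2 higher. Of 57 cytoplasmic ribosomal protein genes 0 passed (limma; 0 higher and 1 lower at an unadjusted p under 0.05), with a median of -0.12. Of 67 genes of the mitochondrial ribosome and protein import 2 fell, Mrpl18 by 0.74 ± 0.21 and Tomm5 by 1.01 ± 0.32. Of these Tomm5, of the outer membrane import pore, did not pass against the reference (adjusted p = 0.537). The count of those lower was 5 without day 0 array C and 0 (limma) without any 1 of the other 5 arrays. Of 55 translation factors and tRNA synthetases 2 fell, Eef1e1 and Aimp2, both of scaffold proteins of the synthetase complex, by 1.31 ± 0.37 and 0.86 ± 0.23. Aimp2 lost the call without day 0 array B, day 1 array A or day 1 array C, and Eef1e1 without any 1 of the 6 arrays.

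Cell cycle genes gave few calls, each a fall. Of 39 genes of DNA replication 2 fell (5.13%) and 0 rose, with a median of -0.36, and of 61 genes of cyclins, mitosis and spindle 4 fell (6.56%) and 0 rose, with a median of -0.16. These shares lie near the 3.90% of all genes. Mybl2, of a transcription factor of cycling cells, stood at 0.99, 0.78 and 0.17 on day 0 and -0.57, -0.72 and -1.03 on day 1. Cks2, of a subunit of cyclin-dependent kinases, stood at 1.37, 1.45 and -0.16 on day 0 and -0.70, -0.45 and -0.72 on day 1, and Cks1b fell by 0.77 ± 0.23. Ccnd2, of cyclin D2, stood at 0.61, 0.62 and 0.00 on day 0 and -0.44, -0.93 and -0.47 on day 1. Cdc6, which loads the replicative helicase, stood at 0.65, 0.90 and 0.09 on day 0 and -0.75, -0.33 and -0.95 on day 1, and Tipin, of the fork protection complex, fell by 1.10 ± 0.34. Cks2, Cks1b and Cdc6 did not pass against the reference (adjusted p = 0.159, 0.0878 and 0.0589). Without day 0 array A, day 0 array B, day 1 array A or day 1 array C 1 mitotic gene was still lower, Mybl2, and no replication gene passed (limma). Myc stood at 0.65, 0.58 and -0.32 on day 0 and -0.27, -0.96 and -0.12 on day 1 and did not pass (adjusted p = 0.233).

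Growth arrest genes moved with more calls, 6 of 25 higher (24%) and 2 lower (8%), and 7 of the 8 also passed against the reference. The turned sign gave 2 higher and 3 lower. Btg1, an antiproliferative gene, stood at -0.25, -0.72 and -0.27 on day 0 and 1.11, 1.5 and 1.42 on day 1, a rise of 1.76 ± 0.27 (adjusted p = 0.00056) that kept the call throughout. Sesn1, of a stress-induced inhibitor of the growth kinase mTORC1, stood at -0.47, -0.45 and -0.34 on day 0 and 1.43, 0.91 and 1.44 on day 1, and Klf9 rose by 1.41 ± 0.34. Ndrg2, of a growth-restraining protein abundant in differentiated tissues, went from 0.15, -0.72 and -0.07 to 2.31, 2.57 and 2.66. Pnrc1, of a nuclear receptor coactivator, stood at -0.98, -1.11 and -0.25 on day 0 and 1.53, 1.99 and 1.67 on day 1. Gadd45g, of a stress-induced partner of cell cycle kinases, ran the opposite way, at -0.41, 0.52 and 0.34 on day 0 and -2.90, -3.26 and -2.93 on day 1 (-3.18 ± 0.37, adjusted p = 4.68e-05), and the p53 target gene Aen fell by 1.10 ± 0.27. Trp53inp1, a p53-induced gene of autophagy and cell death, stood at -1.41 and -1.29 on day 0 and 0.47, 0.42 and 0.52 on day 1, with day 0 array C missing. It was lower than the reference at day 0 (adjusted p = 0.0438) and did not pass against it at day 1 (adjusted p = 0.0586). Of 29 genes of the apoptosis machinery 2 rose and 5 fell (17.2%), the falls including Bok by 1.41 ± 0.33, Pawr by 1.07 ± 0.27, Daxx by 0.84 ± 0.21 and Htra2 by 1.15 ± 0.36. When day 0 array B was left out 0 of the apoptosis genes were lower (limma), and with the day 0 sign turned 1 was higher and 1 lower.

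Transcription factor and chromatin genes gave 4 of 22 higher (18.2%) and 0 lower among liver and epithelial factors. The count was 2 without day 0 array A, day 0 array B or day 1 array B and 1 with the day 0 sign turned. Tcf4, of a class I helix-loop-helix factor, stood at -0.17, -0.27 and 0.01 on day 0 and 1.57, 0.78 and 1.58 on day 1, a rise of 1.46 ± 0.33 that kept the call throughout. Runx1 stood at -0.75 and -0.81 on day 0 and 0.52, 0.26 and 1.01 on day 1, with day 0 array B missing, and Ets2 and Meis1 rose by 0.98 ± 0.24 and 0.95 ± 0.26. Of 65 chromatin genes 3 rose (4.62%) and 1 fell (1.54%), shares below the 5.48% and 3.90% of all genes. Without day 0 array B or day 1 array C, or with the day 0 sign turned, 0 were higher (limma). Smarca2, of a remodelling ATPase, stood at -0.41, -0.46 and 0.03 on day 0 and 1.74, 0.76 and 1.58 on day 1. Hmgb3 and Ezh1 were higher by 1.14 ± 0.30 and 0.76 ± 0.24. Of 84 splicing genes 1 fell, Snrpc by 0.91 ± 0.25, and of 42 cytosolic chaperone genes 1 rose, Bag3 by 0.85 ± 0.24, and 1 fell, Cryab by 1.73 ± 0.40. Bag3 lost the call without any 1 of the 6 arrays, Cryab without day 0 array B or day 1 array C, and Snrpc without day 0 array A, day 0 array B, day 1 array B or day 1 array C. Of 15 immediate early genes Klf9 was the 1 that rose and 0 fell, and Klf9 lost the call without day 0 array A, day 0 array B or day 1 array C. Of 21 genes of microtubules and their motors 1 passed, Tubb3, of a tubulin isotype best known from neurons, at -0.27, -0.10 and 0.23 on day 0 and 1.82, 1.27 and 1.61 on day 1, kept throughout.

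Of 5 hepatocyte and hepatoblast markers tested 0 passed (limma; 0 higher and 0 lower at an unadjusted p under 0.05), Afp at 0.47 ± 0.69 (adjusted p = 0.743) and Igf2 at 0.54 ± 0.59 (adjusted p = 0.65) among them. Of 35 such markers fixed in the list 9 were on the array, and a ratio to a reference of the same line gives no level, so the cell type could not be checked by its markers here. Of 5 bile duct markers 1 rose, Itga6, which lost the call without day 0 array B, day 1 array A or day 1 array C.

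**Figure D5:**
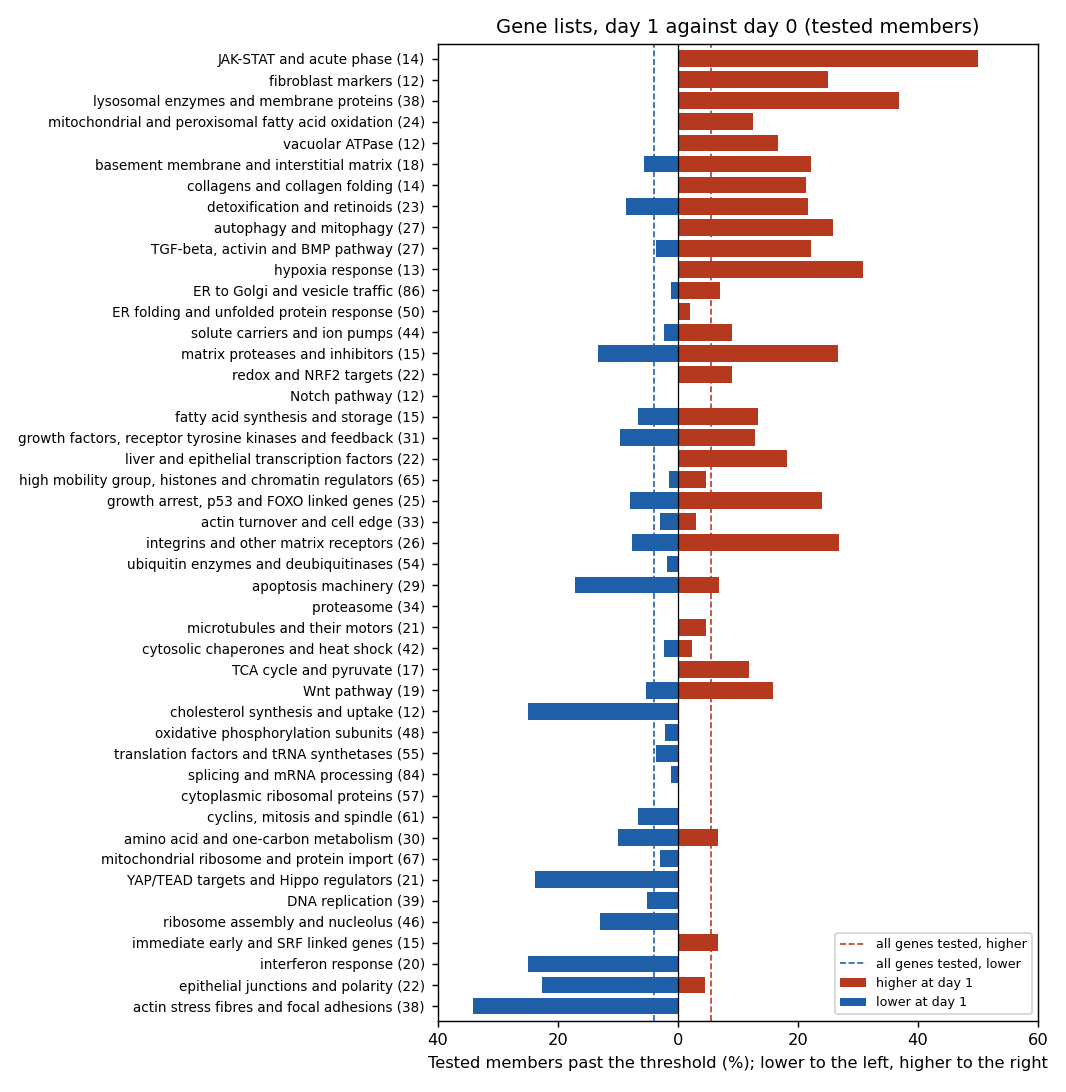
Percentage of the tested members of each gene list past the threshold at day 1 against day 0 (x axis; lower to the left in blue, higher to the right in red), for lists with at least 12 tested members, whose number is in brackets. Dashed lines mark the percentages over all genes, 3.90% lower and 5.48% higher; the longest bars are JAK-STAT and acute phase to the right (50.0%) and actin stress fibres and focal adhesions to the left (34.2%). With the day 0 sign turned this order was not kept: 1 of 14 JAK-STAT and acute phase genes was higher, against 4 of 26 integrins and matrix receptors, and 4 of 38 stress fibre genes were lower, against 6 of 20 interferon response genes.

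Outside the lists, genes of mixed roles filled the ranks below the very largest changes. Jph2, of a protein that ties the endoplasmic reticulum to the cell membrane, stood at -0.25, 0.01 and 0.52 on day 0 and -3.03, -3.47 and -2.92 on day 1, Mcam, of a cell adhesion molecule, at 0.14, -0.13 and 0.36 on day 0 and -2.62, -2.26 and -2.06 on day 1, and Ahnak, of a giant scaffold protein, at -0.04, 0.01 and -0.50 on day 0 and -3.10, -1.81 and -2.501 on day 1. Bex1 fell by 2.21 ± 0.34, and these 4 kept the call throughout. Cyp2s1, of an extrahepatic cytochrome P450, stood at 0.96, 1.14 and 0.12 on day 0 and -1.69, -2.55 and -1.45 on day 1 and did not pass with the day 0 sign turned (-1.15). Among those that rose, Smim3, of a small membrane protein, stood at -0.40, -0.83 and 0.02 on day 0 and 1.84, 2.16 and 1.78 on day 1 and kept the call throughout. AU020206 rose by 2.39 ± 0.53 and Sipa1l2, of a Rap GTPase activator, by 2.28 ± 0.53. Abhd4, of a lipase of N-acyl phospholipids, stood at -0.996, -0.57 and 0.27 on day 0 and 2.40, 1.87 and 2.04 on day 1.

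In 21 of the 191 named calls day 1 did not pass against the reference. They were Atp6ap2, Cdc6, Cks1b, Cks2, Copz1, Csnk1a1, Ctnnb1, Ddx21, Fundc1, Golga7, Hmgb3, Manba, Noc2l, Pdgfc, Plin2, Rrs1, Spcs2, Stx7, Tmbim6, Tomm5 and Trp53inp1. In Pdgfc, of a platelet-derived growth factor ligand, day 0 stood at -1.0, -1.16 and -0.24 and day 1 at 0.17, 0.29 and 0.23, so most of its difference of 1.03 ± 0.27 lay on the day 0 side. Tmbim6, of a membrane protein that restrains cell death, stood at -0.80, -0.67 and 0.00 on day 0 and 0.48, 0.33 and 0.27 on day 1. No named gene that passed against day 0 in 1 direction passed against the reference in the other. The contrasts share the day 1 arrays, so this agreement is partly built in.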

How the data were processed

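The table that the authors deposited gives log ratios for 24157 features in 24 columns, read here as log2 of Cy5 (sample) over Cy3 (reference). Not given in the sources used here are its base, numerator, scanner, background correction and normalization, and why cells are empty. Beyond this reading its scale, centring and direction are unknown. Base 2 fits the range of the values, and the dyes in the labels' protocols make the sample the likely numerator. Per the labels' protocols, total RNA was amplified and targets were made with random primers; dyes were not swapped in any label. Column medians as deposited were 0.0118, -0.0052 and 0.0005 on day 0 (A, B, C) and 0.010, 0.0094 and 0.005 on day 1. Values per array numbered 15310 to 22149 features, and the SD of the ratios was 0.332 to 0.473 on day 0 and 0.558 to 0.594 on day 1. The number of arrays limits the precision: the median SE was 0.301 for a difference and 0.212 against the reference.

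The platform annotation listed 13908 features, 13319 with 1 symbol, 589 with several genes (left unnamed), and 10249 features were not listed. Symbols were updated through Entrez identifiers in a RefSeq table (GRCm38.p6; 13290 matched, 29 kept), giving 8315 symbols. Arrays were centred on the median and features of a symbol averaged; 252 of the called genes had more than 1 feature, and in 6 a feature ran the opposite way. Units with at least 2 values on each of the 8 days were tested. Day means over all 24 arrays, which share the estimate of spread, were fitted in R 4.3.3 by limma 3.58.1 (lmFit, eBayes; 2-sided, Benjamini-Hochberg, threshold 0.05). The contrasts were day 1 minus day 0, day 1 against 0 and day 0 against 0.

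Named genes were ranks 1 to 24 in each direction with values on all 6 arrays and no overlap, up to 8 called members of each of 55 gene lists, 24 fixed genes, and genes past the threshold at day 0. Not every named gene is described. Some genes are members of more than 1 list and count in each. The comparison, members and lists were chosen with earlier results of these data known. Groups without overlap were seen in 1364 of 5305 genes with day 1 higher (25.7%) and 856 lower (16.1%). On simulated data for day 1 minus day 0 with 10639 units, the fit recovered 33% of units changed by 1 and 86% of those changed by 2, with 10 false calls among 129. Simulated noise was normal, independent between arrays and, within a unit, of equal spread on each array. The measured arrays differ in this, so these rates need not hold for them. Promoter windows came from a RefSeq table (GRCm38.p6).

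Replicate letters did not pair these arrays: deviations from the day mean correlated at -0.049, 0.018 and 0.002 between same-letter arrays of days 0 and 1. Alternatives were other scalings, filters, subsets of arrays, array weights, a replicate block, turned signs and each array left out.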

Additional observations from a re-analysis of the deposited data

How the results depend on the processing

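The count of 1161 units past the threshold between day 1 and day 0 (531 higher, 630 lower) was 3216 with arrays scaled to a common spread, 3164 with quantile normalization, 1756 with the filter on days 0 and 1 alone, 3297 with only the 6 arrays fitted, 3223 with days 0 to 3, 2271 without the C arrays of days 4 to 7, and 6349 with array weights, whose gene-by-gene estimate was used. It was 515 with the day 0 sign turned on all 3 arrays, 276 of them shared. It stayed within 1.5 times of 1161 as deposited without centring (1173), for single features (1344), with values on all 6 arrays (1098), with a robust prior (1150) and with that of day 0 array C alone turned (1705). Leaving out each array in turn gave 330 to 1565 units. Against the reference the count of 1720 was 3572 scaled, 3395 with quantile normalization, 4199 with 6 arrays, 3857 with days 0 to 3, 2906 without the late C arrays, 6131 with weights, and 755 to 1795 with an array left out. For day 0 against the reference the count of 1 (969 at an unadjusted p under 0.05) was 1427 scaled, 1603 with quantile normalization, 2 for single features, 0 with values on all 6 arrays, 6 with 6 arrays, 325 with days 0 to 3, 28 without the late C arrays, 5438 with weights, 2 with array C turned, and 0 to 29 with an array left out.

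The main fit did not use the letters to pair the arrays. With the replicate block the counts were 1559 over all arrays and 2880 over days 0 and 1 only for day 1 minus day 0, 2202 and 3818 against the reference, and 3 and 1 for day 0.

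With the day 0 sign turned on all 3 arrays, the difference changed sign in Afp (-0.68), Cks2 (0.261), Copz1 (-0.185), Csnk1a1 (-0.072), Egfr (-0.002), Fundc1 (-0.062), Igf2 (-0.053), Lamc1 (-0.124), Lpin1 (-0.391), Pdgfc (-0.568), Plin2 (-0.327), Runx1 (-0.187), Spcs2 (-0.27), Stx7 (-0.09), Tmbim6 (-0.129), Tomm5 (0.528), Trp53inp1 (-0.884) and Vim (-0.481). Against the reference Afp (-0.104) and Vim (-0.117) changed sign. The cause was not tested in any of these.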
